A study of Mus musculus with 57 samples.

Results

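The 9 genes described here, Hsd3b5, Hsd3b3, Car3, C330021F23Rik, Slc13a2, Ptk6, Keg1, Upp2 and Inmt, are liver transcripts that were picked because each was lower after all 7 liver toxicants of one mouse study. They are 9 of the 54307 genes in the deposited table. They were chosen by their log2 fold changes against vehicle, so those differences are given as a description with no test. What the choice did not use is tested: differences between compounds given by the same route, and differences between the vehicle groups. The study measured bulk RNA of 57 livers of male wild-type C57BL/6JJcl mice, aged 6 weeks, acclimatised for 1 week, fasted for 12 h and killed 24 h after dosing, in work on estimating cell types from whole-tissue data. By gavage, mice received thioacetamide (TAA, 5), 4,4'-methylene dianiline (MDA, 7), acetaminophen (APAP, 6) or alpha-naphthyl isothiocyanate (ANIT, 4), with 13 controls given 0.5% methylcellulose. By intraperitoneal injection, they received galactosamine (GAL, 4) or carbon tetrachloride (CCl4, 7), with 2 saline controls. Concanavalin A (ConA, 7), a plant lectin, was injected intravenously, with 2 saline controls of that route. The dose of each compound is not given in the sources used here. Corn oil is named among the vehicles, but no control is labelled with it, so for a compound dissolved in it, vehicle and compound cannot be told apart. Replicate numbers in the labels are read here as 1 mouse each, and nothing says whether mice shared a cage, a litter or a day.

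The hepatocyte, the main cell of the liver, carries out steroid conversion, conjugation and methylation of small molecules, and exchange of metabolites with blood. In the mouse many of these genes differ between the sexes: the pulsed growth hormone of males acts through its receptor and the transcription factor STAT5 to keep male-type genes such as Hsd3b5 on. Expression of such specialised genes is known to be sensitive to illness, fasting and inflammation. Carbon tetrachloride, acetaminophen and thioacetamide become toxic through metabolism in hepatocytes. Alpha-naphthyl isothiocyanate and methylene dianiline are classic bile duct toxicants, galactosamine depletes uridine nucleotides, and concanavalin A acts through immune cells.

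The libraries held 13826343 to 35075809 estimated counts, with a median of 21532116. Mitochondrial genes took 5.11% to 39.3% of them. In ConA mice, one of the deepest groups below, they took 14.6% to 39.3%, against 6.79% and 25.4% in the intravenous controls, and with mitochondrial genes left out before scaling the ConA median of the 9 genes was -4.16, against -4.14 with them. The share was 9.54% to 20.1% in GAL and 9.43% to 14.5% in CCl4 mice, all above both intraperitoneal controls (5.11% and 9.24%). With those genes left out the medians of the 9 genes were -4.34 with GAL and -2.86 with CCl4, against -4.36 and -2.86. Levels are given as CPM, estimated counts scaled to a common library total, with TMM factors that correct each library for its composition. All 12 hepatocyte markers were present in every group. Their summed level was 47544 to 61096 CPM in CCl4 mice and 47097 to 56397 CPM in GAL mice, against 99097 to 181732 CPM in gavage controls and 107505 to 110640 CPM in intraperitoneal controls. In ANIT, APAP, MDA, TAA and ConA mice this sum lay between 101640 and 190379 CPM. In bulk tissue, fewer hepatocytes and less RNA per hepatocyte cannot be told apart, and the part of the hepatocyte sum in the losses below was not tested. Neutrophil markers moved with several compounds. The summed level of 7 such genes had a median of 307 CPM in TAA mice, against 4.93 CPM in gavage controls. In ConA mice it was 223 CPM, against 7.70 and 8.89 CPM in intravenous controls. The sums were 25.9 to 41.0 CPM in GAL and 10.6 to 76.7 CPM in CCl4 mice, against 5.12 and 5.84 CPM in intraperitoneal controls. Of the markers tested, 6 of 6 were higher with TAA (26.4% of all genes), 5 of 6 with ConA (16.8%), 4 of 5 with GAL (12.8%) and 3 of 4 with APAP (17.3%). With MDA 2 of 4, with CCl4 2 of 5 and with ANIT 1 of 4 were higher. The defining neutrophil gene Ly6g was at 0 in all ANIT and all vehicle mice. Kupffer markers, of the resident macrophages, were all lower with ConA (7 of 7, beside 17.3% of all genes). Their sums were 44.2 to 78.4 CPM, against 360 to 404 CPM in intravenous controls. Of 6 cholangiocyte markers, from bile duct cells, 3 were higher with ConA (16.8% of all genes), 2 with APAP (17.3%) and 2 with TAA (26.4%). With ANIT 2 were lower (14.2%) and 1 higher (14%), and with MDA 1 was higher (17.4%), counts too small to set against these shares. B cell markers were lower with ANIT (3 of 4 tested, 14.2% of all genes) and MDA (3 of 3, 16.4%) and higher with TAA (4 of 4, 26.4%). Of 6 stellate cell markers tested, 5 were lower with MDA (16.4%) and 2 with ANIT (14.2%), and 3 were higher with APAP (17.3%). With TAA 1 of 6 was lower and 1 higher. Of 7 tested, 3 were lower with ConA (17.3%) and 2 with CCl4 (15.6%). Of 6 monocyte markers, 4 were higher with APAP (17.3% of all genes), 4 with TAA (26.4%), 5 with GAL (12.8%) and 3 with CCl4 (18%). With MDA 1 of 6 was higher (17.4%) and with ConA 2 of 5 tested (16.8%), and with ANIT 1 of 5 was lower (14.2%). The part of these markers in the losses was not tested.

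All 9 genes were lower with each compound at an adjusted p under 0.05 in edgeR's quasi-likelihood test. Since the choice fixed this count, nothing is read from it. Over all genes tested, 14.2% were lower with ANIT, 14.6% with APAP, 16.4% with MDA, 24% with TAA, 15.6% with CCl4, 15.7% with GAL and 17.3% with ConA. Of 12834 genes tested with every compound, 336 were lower with all 7, and 109 of these had a log2 fold change under -1 each time. Ordered by the smallest of a gene's 7 losses, Hsd3b5 came first with -3.54, followed by Car3 with -2.86, C330021F23Rik with -2.68, Slc13a2 with -2.55, Ptk6 with -2.45, Keg1 with -2.43, Upp2 with -2.38 and Inmt with -2.34. Hsd3b3 was at rank 13 with -2.08. Among the genes just outside the chosen 9, Nudt7 stood at rank 11 with -2.15, Nxpe2 at rank 12 with -2.14 and Tmie at rank 14 with -2.05, so the chosen genes are not a closed class.

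The depth of loss differed by compound. The median log2 fold change of the 9 genes against the vehicle of the same route was -4.36 with GAL and -4.14 with ConA. With the other compounds it was -3.09 (TAA), -2.93 (MDA), -2.86 (CCl4), -2.86 (ANIT) and -2.70 (APAP). The median over all genes tested lay between -0.01 and 0.10 in these fits. Against the route vehicles GAL gave the deepest loss for Hsd3b3, Keg1, Upp2 and Inmt, and ConA for Car3 and C330021F23Rik. ANIT was deepest for Hsd3b5, TAA for Ptk6 and CCl4 for Slc13a2. CCl4 was also the shallowest compound for 5 of the 9 genes, Hsd3b5, Hsd3b3, Car3, Ptk6 and Keg1. The GAL median was -5.46 without GAL mouse 2. The MDA median was -4.11 when only mice with numbers above 4 were used on both sides.

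Against all 17 vehicle mice together, the medians were -4.43 (GAL), -4.19 (ConA), -3.21 (TAA), -2.97 (CCl4), -2.85 (ANIT), -2.84 (MDA) and -2.76 (APAP). Again all 9 genes were lower with each compound, a count that the choice of genes fixed, so nothing is read from it. Over all genes tested, 27.5% were lower with GAL, 33.7% with ConA, 24.5% with TAA, 27.2% with CCl4, 14.5% with ANIT, 17.1% with MDA and 15.3% with APAP. GAL and ConA had the 2 deepest medians with both sets of controls, while the order among the other 5 compounds changed with the controls. With library totals in place of TMM factors the route-vehicle medians were -4.79 for ConA, -3.56 for GAL and -3.24 for TAA, beside all-gene medians of -0.56 for ConA and 0.84 for GAL. The order of ConA and GAL was then reversed. The compound with the deepest loss also changed for single genes: against all 17 vehicle mice it was ConA for Hsd3b3 (-3.95, GAL -3.92) and TAA for C330021F23Rik (-5.57, ConA -4.97). These comparisons share control mice, so their values stand side by side only.

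**Figure D1:**
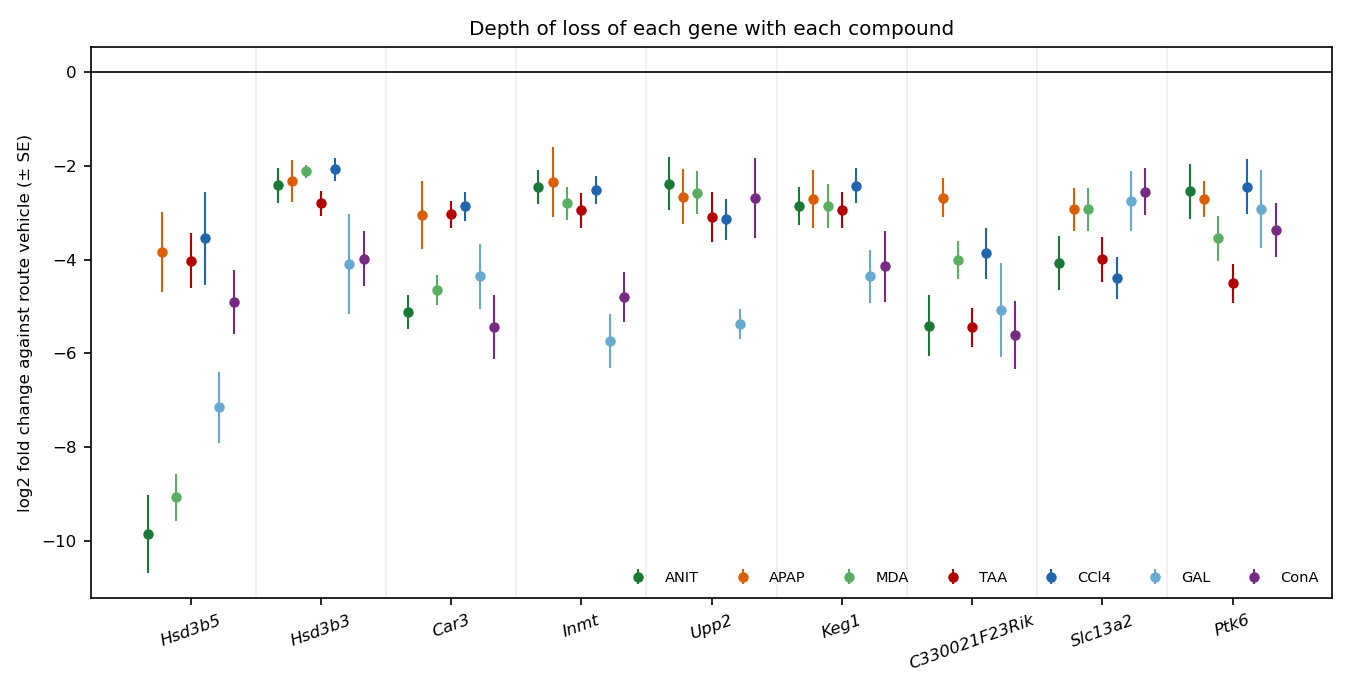
Log2 fold change of each gene (vertical axis) against the vehicle of the same route for 7 compounds; points are edgeR estimates and bars are ± 1 SE. Hsd3b5 spans the widest range, from -3.54 with CCl4 to -9.85 with ANIT, while Hsd3b3 stays between -2.08 and -4.10.

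Hsd3b5 and Hsd3b3 belong to the 3-beta-hydroxysteroid dehydrogenases, enzymes that act on the steroid ring. Hsd3b5 is a male-type liver gene whose product reduces 3-ketosteroids, and Hsd3b3 encodes a liver and kidney form that oxidises and isomerises steroids. Both genes lie on chromosome 3, and their longest open reading frames in GENCODE M21 have 1122 nt and were 81.0% identical over 1113 aligned nt. The 250 bases before their RefSeq start sites (GRCm38.p6, both on the minus strand) are shown because the pair fell together while differing in depth. The Hsd3b5 window is chr3:98645535-98645784 and the Hsd3b3 window is chr3:98763129-98763378; the capitals mark their longest shared stretch, 24 bases.
Hsd3b5: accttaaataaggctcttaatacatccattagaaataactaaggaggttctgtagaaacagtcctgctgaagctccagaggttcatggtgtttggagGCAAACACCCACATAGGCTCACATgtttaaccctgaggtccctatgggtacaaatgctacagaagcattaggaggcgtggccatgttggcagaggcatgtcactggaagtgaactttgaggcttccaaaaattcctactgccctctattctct
Hsd3b3: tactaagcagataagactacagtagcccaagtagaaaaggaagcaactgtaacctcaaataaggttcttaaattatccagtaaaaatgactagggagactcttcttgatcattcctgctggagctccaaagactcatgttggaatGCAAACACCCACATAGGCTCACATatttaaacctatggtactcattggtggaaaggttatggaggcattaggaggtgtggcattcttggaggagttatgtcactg
Over 199 aligned bases the windows were 75.9% identical. The shared stretch begins 153 bases before the Hsd3b5 start and 105 bases before the Hsd3b3 start. The RefSeq start of Hsd3b5 was not found in a GENCODE M21 transcript, so its window may not sit at the start used in liver.

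Hsd3b5 was at 19.5 to 146 CPM (median 92.8) in the 13 gavage controls, at 123 and 72.8 CPM in the intraperitoneal controls and at 60.3 and 54.4 CPM in the intravenous controls. In ANIT mice it was 0.399 CPM in mouse 1 and 0 in the other three. MDA mice ranged from 0.0317 to 0.351 CPM (median 0.128). Both bile duct toxicants thus left the transcript at or near the lower limit of these libraries: the estimated counts were 5.60 in ANIT mouse 1, and 0.83 to 9.36 in MDA mice. The 4 GAL mice had 1.74, 0.57, 0.310 and 0.276 CPM. In TAA mice the values were 14, 0.715, 2.07, 5.22 and 4.52 CPM. ConA mice ranged from 0.124 to 5.04 CPM (median 1.65), with mouse 4 highest. The 2 compounds with the widest spread were APAP, at 0 to 19.0 CPM (median 3.49), and CCl4, at 0.702 to 20.9 CPM (median 3.51). The reading frame of Hsd3b5 is 95.2% identical to that of Hsd3b4, so reads could be split between them; Hsd3b4 had a mean of 0.124 CPM in vehicle mice. No treated group overlapped the controls of its own route, and 1 CCl4 mouse lay above the lowest of all 17 vehicle mice. The log2 fold changes (± SE) were -9.85 ± 0.83 with ANIT, -9.07 ± 0.50 with MDA, -7.15 ± 0.76 with GAL, -4.90 ± 0.69 with ConA, -4.03 ± 0.59 with TAA, -3.83 ± 0.85 with APAP and -3.54 ± 0.99 with CCl4.

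Hsd3b3 varied less among vehicle mice, from 221 to 360 CPM (median 285) in gavage controls, with 360 and 298 CPM in intraperitoneal and 283 and 273 CPM in intravenous controls. MDA mice kept 49.5 to 91.1 CPM (median 59.4) and CCl4 mice 43.5 to 112 CPM (median 76.3). These were the most even groups. GAL mice had 58.1, 7.23, 2.5 and 13.6 CPM, a wide spread with mouse 2 highest. ANIT mice had 117, 53.7, 15.6 and 27.5 CPM, and TAA mice 76.6, 18.2, 29.5, 39.6 and 33.9 CPM. ConA mice lay at 3.35 to 41.6 CPM (median 15.1) and APAP mice at 6.92 to 102 CPM (median 61.3). All treated mice were below all vehicle mice. The log2 fold change ran from -2.08 ± 0.25 with CCl4 and -2.12 ± 0.14 with MDA to -4.10 ± 1.07 with GAL and -3.98 ± 0.59 with ConA. The reading frame of Hsd3b3 is 95.1% identical to that of Hsd3b2 and 94.5% to that of Hsd3b6, so reads could be split between them. The log2 ratio of mean CPM summed over all 3 genes was -2.07 with CCl4 and -4.03 with GAL, against -2.06 and -4.01 for Hsd3b3 alone.

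**Figure D2:**
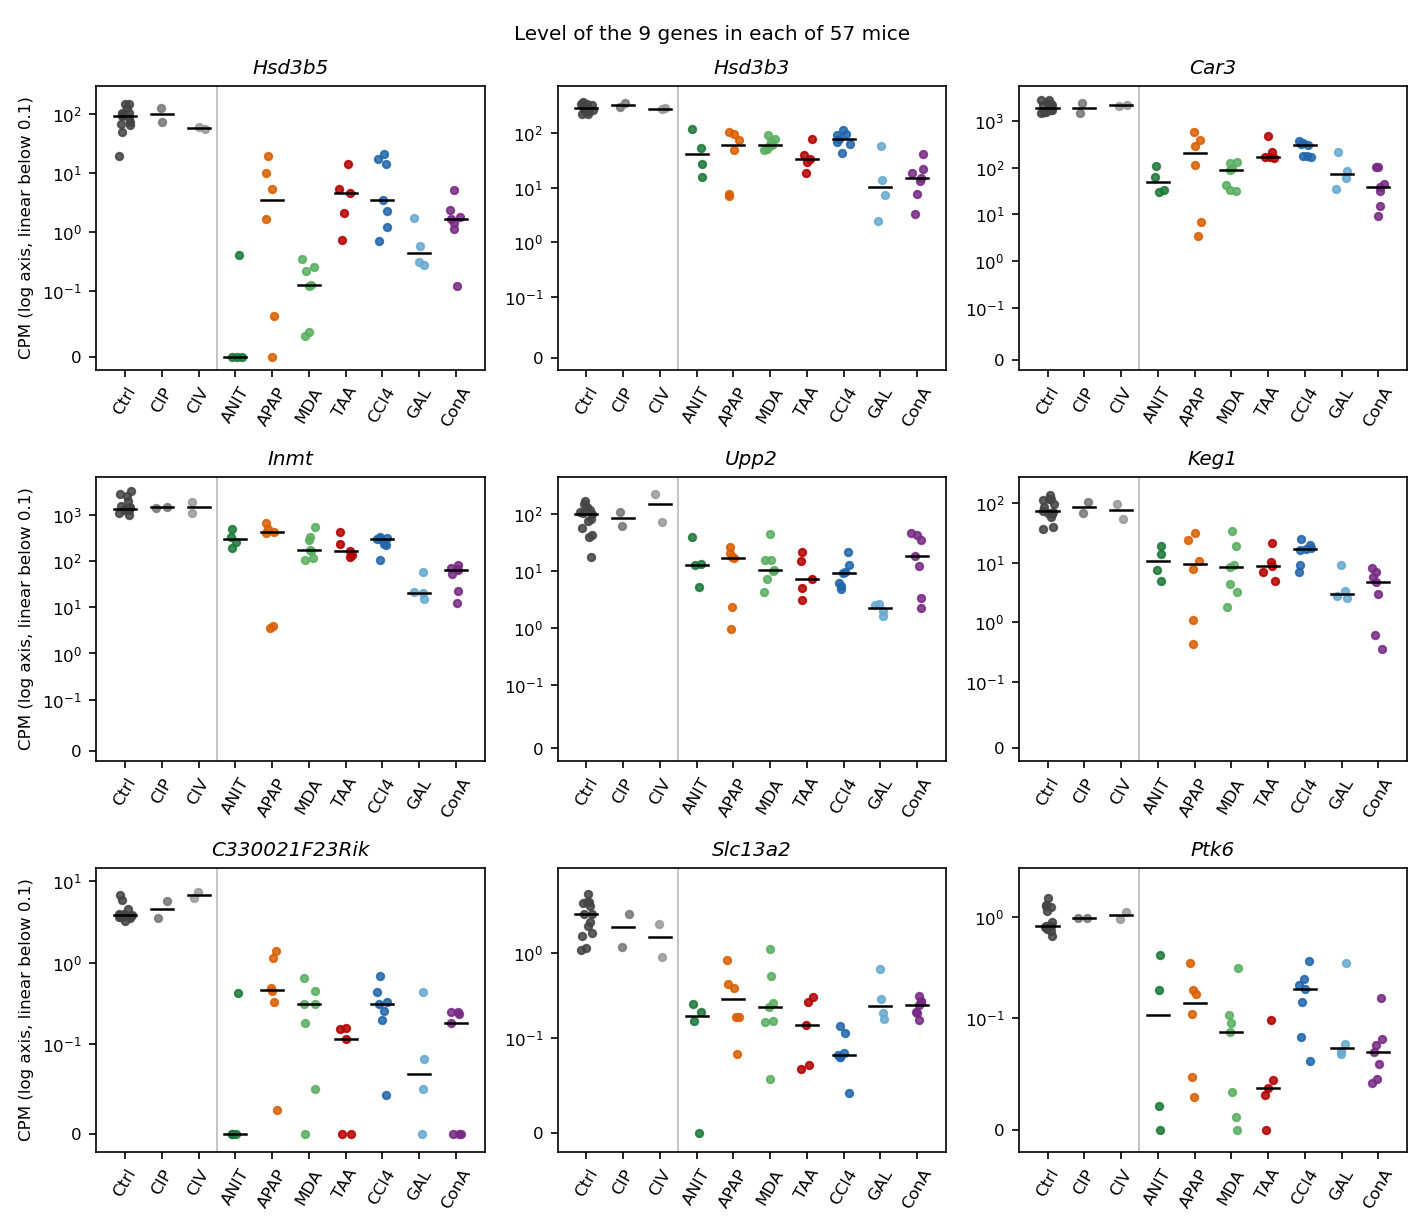
CPM of each gene (vertical log axis, linear below 0.1) in every mouse by group; each point is a mouse, black bars are medians and the grey line separates the 17 vehicle mice on the left from the 40 treated mice. Hsd3b5 reaches 0 in 3 of 4 ANIT mice, and APAP splits into 4 higher and 2 lower mice in Inmt, Car3 and Hsd3b3.

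Car3 encodes a cytosolic carbonic anhydrase, abundant in male liver, muscle and fat. It stood at 1452 to 2815 CPM (median 1876) in gavage controls, 2378 and 1477 CPM in intraperitoneal controls, and 2097 and 2232 CPM in intravenous controls. ConA mice kept 9.41 to 101 CPM (median 39.1), ANIT mice 29.9, 107, 63.7 and 33.2 CPM, and MDA mice 32.2 to 131 CPM (median 91.0). These are the 3 deepest groups, with -5.44 ± 0.68, -5.12 ± 0.37 and -4.65 ± 0.32. GAL mice held 216, 86.3, 59.7 and 34.4 CPM (-4.36 ± 0.69). CCl4 mice held 166 to 371 CPM (median 304, -2.86 ± 0.31). TAA mice held 481, 163, 166, 213 and 165 CPM (-3.04 ± 0.29), with mouse 1 apart from the other four. APAP mice ranged from 3.46 to 584 CPM (median 206, -3.05 ± 0.72). Every treated mouse was below every vehicle mouse.

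Inmt encodes indolethylamine N-methyltransferase, which methylates small amines. Gavage controls had 999 to 3400 CPM (median 1384), intraperitoneal controls 1531 and 1438 CPM, and intravenous controls 1911 and 1104 CPM. GAL mice had 60.2, 21.7, 20.1 and 15.5 CPM and ConA mice 12.3 to 81.8 CPM (median 63.6). With -5.73 ± 0.57 and -4.79 ± 0.53 they formed the deep pair for this gene. ANIT mice had 198, 494, 341 and 268 CPM (-2.45 ± 0.36), and TAA mice 434, 127, 136, 166 and 244 CPM (-2.95 ± 0.38). MDA mice lay at 106 to 557 CPM (median 180, -2.80 ± 0.35) and CCl4 mice at 108 to 331 CPM (median 308, -2.51 ± 0.29). These 4 groups overlapped one another. APAP mice spanned 3.61 to 670 CPM (median 425), and their fold change of -2.34 ± 0.75 averages 2 very different sets of mice.

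Keg1 encodes a protein of the glycine N-acyltransferase family, enzymes that conjugate acids to glycine. It was at 37.0 to 138 CPM (median 74.6) in gavage controls, at 104 and 67.1 CPM in intraperitoneal controls, and at 54.2 and 97.6 CPM in intravenous controls. GAL mice had 9.14, 3.32, 2.72 and 2.51 CPM (-4.35 ± 0.56), and ConA mice 0.357 to 8.23 CPM (median 4.81, -4.14 ± 0.76). The loss was shallowest with CCl4, at 6.98 to 25.1 CPM (median 16.7, -2.43 ± 0.38). ANIT mice had 14.2, 19.4, 4.98 and 7.54 CPM, and TAA mice 21.7, 5.01, 6.88, 10.2 and 8.87 CPM. MDA mice ranged from 1.80 to 34.2 CPM (median 8.31) and APAP mice from 0.424 to 31.4 CPM (median 9.33). Against gavage controls the fold changes of these 4 lay close together, from -2.70 with APAP to -2.94 with TAA. No treated group overlapped vehicle mice.

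Keg1 was the only gene of the 6 with a RefSeq promoter entry whose 250 bases before the start held the STAT5-type palindrome TTCNNNGAA, searched on both strands. Of 32851 promoter windows of that length, 7.02% held it. The Keg1 window, chr19:12695540-12695789 on the plus strand of GRCm38.p6, is shown because it holds 2 copies, in capitals, which begin 173 and 107 bases before the start.
Keg1: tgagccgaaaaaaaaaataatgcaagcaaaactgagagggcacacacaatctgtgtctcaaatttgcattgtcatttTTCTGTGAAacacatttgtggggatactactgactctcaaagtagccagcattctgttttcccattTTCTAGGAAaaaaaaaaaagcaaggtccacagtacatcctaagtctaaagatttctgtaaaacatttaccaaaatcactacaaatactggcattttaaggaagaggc
The HNF4A-type word CAAAGTCCA (0.384% of windows) and the CEBP-type word TTGCNNAA (9.564%) were in none of the windows of Hsd3b5, Hsd3b3, Slc13a2, Keg1, Upp2 and Inmt. A match describes letters and not a bound site.

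Upp2 encodes uridine phosphorylase, which splits uridine into uracil and ribose phosphate. It varied most among the vehicle mice, from 17.5 to 174 CPM (median 99.5) after gavage, with 112 and 62.9 CPM in intraperitoneal and 73.6 and 226 CPM in intravenous controls. GAL mice had 2.64, 1.61, 2.58 and 1.96 CPM. This was the deepest and the most even loss of the gene, at -5.37 ± 0.32. ConA mice spread from 2.27 to 46.9 CPM (median 18.5, -2.68 ± 0.86), and CCl4 mice from 4.87 to 21.6 CPM (median 9.22, -3.14 ± 0.44). ANIT mice had 12.8, 40.5, 5.32 and 13.2 CPM (-2.38 ± 0.57), and TAA mice 21.8, 3.13, 5.08, 15.1 and 7.45 CPM (-3.09 ± 0.54). MDA mice had 4.29 to 44.9 CPM (median 10.5, -2.57 ± 0.46) and APAP mice 0.958 to 26.8 CPM (median 17.4, -2.66 ± 0.59). All 4 gavage compounds overlapped their controls in this gene, and only GAL left all of its mice below all 17 vehicle mice. The annotation places Gm13558 and Gm13559 on the same strand within the Upp2 locus, so its reads may be shared with them.

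Slc13a2, Ptk6 and C330021F23Rik were low in vehicle livers, so treated values rest on few reads. Slc13a2 encodes a sodium-coupled carrier of dicarboxylates such as succinate. It was at 1.10 to 4.99 CPM (median 2.89) in gavage controls, 2.86 and 1.19 CPM in intraperitoneal controls, and 2.17 and 0.904 CPM in intravenous controls. CCl4 mice were lowest, at 0.0419 to 0.138 CPM (median 0.0823), and their fold change of -4.39 ± 0.45 was the deepest for this gene. GAL mice had 0.659, 0.169, 0.197 and 0.287 CPM (-2.75 ± 0.65), and ConA mice 0.163 to 0.317 CPM (-2.55 ± 0.50). Against the route vehicles CCl4 was thus deepest and ConA shallowest for Slc13a2. Against all 17 vehicle mice CCl4 was again deepest (-4.74 ± 0.40), while ConA, at -3.21 ± 0.37, lay below GAL (-3.05), APAP (-2.80) and MDA (-2.80). ANIT mice had 0.203, 0.159, 0 and 0.254 CPM (-4.07 ± 0.58), and TAA mice 0.265, 0.306, 0.0678, 0.144 and 0.0715 CPM (-4.0 ± 0.47). APAP mice lay at 0.0833 to 0.833 CPM (-2.93 ± 0.46) and MDA mice at 0.0574 to 1.12 CPM (-2.93 ± 0.45). MDA mouse 1, the highest, overlapped the gavage controls.

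Ptk6 encodes a cytoplasmic tyrosine kinase related to Src and known from epithelia. It was at 0.657 to 1.54 CPM (median 0.823) in gavage controls, 0.980 and 0.976 CPM in intraperitoneal and 0.964 and 1.13 CPM in intravenous controls. TAA mice were lowest, at 0, 0.0311, 0.0448, 0.0369 and 0.0980 CPM (-4.51 ± 0.41). MDA mice ranged from 0 to 0.314 CPM (-3.54 ± 0.48) and ConA mice from 0.0420 to 0.156 CPM (-3.37 ± 0.58). GAL mice had 0.353, 0.0702, 0.0761 and 0.0674 CPM (-2.92 ± 0.84), and ANIT mice 0.0208, 0.190, 0 and 0.417 CPM (-2.55 ± 0.59). APAP mice lay at 0.0295 to 0.354 CPM (-2.71 ± 0.38) and CCl4 mice at 0.0614 to 0.365 CPM (-2.45 ± 0.59). No treated mouse reached the lowest vehicle mouse.

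C330021F23Rik, a transcript named only by its cDNA clone, was at 3.27 to 6.73 CPM (median 3.85) in gavage controls, at 3.57 and 5.66 CPM in intraperitoneal controls, and at 7.32 and 6.18 CPM in intravenous controls. ANIT mouse 1 had 0.425 CPM and the other three had 0, the same pattern by mouse as for Hsd3b5. It was also at 0 in 3 of 7 ConA, 2 of 5 TAA, 1 of 7 MDA and 1 of 4 GAL mice. APAP mice kept the most, 0.0270 to 1.38 CPM (median 0.461, -2.68 ± 0.41). The deepest fold changes were -5.60 ± 0.73 with ConA, -5.44 ± 0.42 with TAA, -5.41 ± 0.65 with ANIT and -5.07 ± 1.00 with GAL. MDA gave -4.02 ± 0.41 and CCl4 -3.87 ± 0.55. Groups never overlapped with vehicle for this transcript, although in the treated mice the estimated counts reached no more than 35.8.

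With some compounds several of the 9 genes were low, or high, in the same animals, which was not tested. ANIT mice were mixed: mouse 1 was among the lowest 2 of 4 in 4 genes and highest in 3. ANIT mouse 4 was among the lowest 2 in 6 genes and highest in 2. APAP mouse 8 was among the lowest 2 of 6 in all 9 genes and APAP mouse 11 in 8 of 9. Inmt was 3.61 and 3.86 CPM in these mice and 407 to 670 CPM in the other four. Car3 was 3.46 and 6.84 CPM there, and 115 to 584 CPM in the rest. Neutrophil markers summed to 198 and 271 CPM in the same pair, against 13.2 to 38.9 CPM in the other four. Kupffer markers summed to 574 and 650 CPM (321 to 441 CPM in the other four), monocyte markers to 82.5 and 123 CPM (46.4 to 63.6 CPM), sinusoidal endothelial markers to 278 and 213 CPM (154 to 200 CPM) and cholangiocyte markers to 97.7 and 210 CPM (54.0 to 82.7 CPM), while the hepatocyte sum was 102863 and 118091 CPM, against 112523 to 157482 CPM. The part of these markers in the loss was not tested. Without this pair the APAP median over the 9 genes was -2.21. GAL mouse 2 was the highest of 4 in all 9 genes. Its hepatocyte sum was 48562 CPM (47097 to 56397 CPM in the other GAL mice) and its neutrophil sum 25.9 CPM (26.2 to 41.0 CPM). It lay outside the other GAL mice in the sums of stellate (98.4 against 151 to 208 CPM), sinusoidal endothelial (142 against 170 to 220 CPM) and monocyte markers (71.2 against 82.9 to 131 CPM). GAL mouse 2 also stood apart in B cell (14.1 against 7.08 to 9.66 CPM) and cholangiocyte markers (53.9 against 57.6 to 92.2 CPM). Its mitochondrial share was 9.54%, against 14.8% to 20.1%. The part of these in its higher levels was not tested. TAA mouse 1 was highest in 6 genes. Its hepatocyte sum was 179676 CPM against 107197 to 123525 CPM in the other 4, and its neutrophil sum 161 CPM against 286 to 835 CPM. It also lay outside them in stellate (262 against 100 to 215 CPM), Kupffer (410 against 304 to 356 CPM) and sinusoidal endothelial sums (167 against 123 to 162 CPM). The same held for B cell (11.8 against 17.2 to 20.4 CPM) and T and NK cell sums (4.58 against 5.16 to 8.60 CPM). The part of these markers was not tested. ConA mouse 4 was also highest in 6 genes, and MDA mouse 1 and APAP mouse 6 in 5 each.

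For each treated mouse, the percentage of the mean of all 17 vehicle mice that was left was taken per gene, and then the median over the 9 genes. GAL mice kept 1.99% to 10.6% (median 2.55%) and ConA mice 1.16% to 7.67% (median 5.00%). MDA mice kept 4.34% to 31.6% (median 7.53%), TAA mice 5.14% to 22.0% (median 8.17%) and ANIT mice 3.14% to 18.6% (median 9.43%). APAP mice kept 0.595% to 30.3% (median 13.9%) and CCl4 mice 6.17% to 19.5% (median 14.1%). The single lowest mouse was APAP mouse 8, in a group whose median was among the highest. Ranges of all 7 compounds overlapped.

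**Figure D3:**
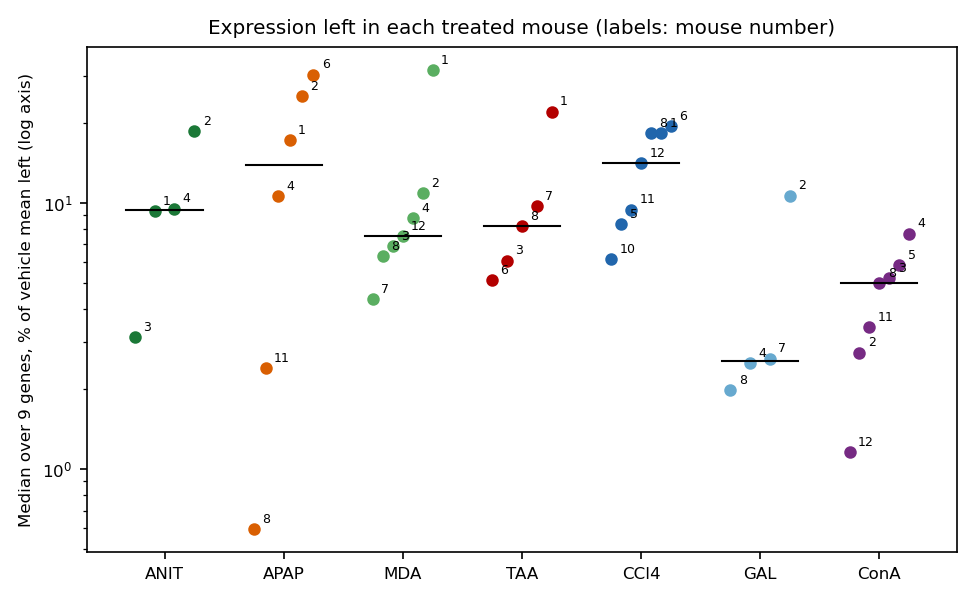
Median over the 9 genes of the percentage of the vehicle mean left (vertical log axis) in each treated mouse; points are mice with their number, bars are group medians. GAL and ConA have the lowest medians, 2.55% and 5.00%, and APAP spans 0.595% to 30.3%.

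Direct comparison of compounds given by the same route asked whether the genes differ between toxicants beyond the spread of the mice. Slc13a2, Ptk6 and C330021F23Rik were too low in treated mice for edgeR's expression filter and were not tested in any of the 7 pairs, and Hsd3b5 was not tested in the 2 pairs of MDA with ANIT and APAP. In CCl4 against GAL, Inmt, Upp2, Keg1, Hsd3b3 and Car3 were higher with CCl4, beside 22.2% of all genes higher and 42.5% called in either direction. Hsd3b5 was also higher, but GAL mice alone (9.61 to 48.6 estimated counts each) had too few counts to carry it through the filter. Inmt differed by 3.13 ± 0.43 (log2, SE; adjusted p = 0.000152, edgeR), Upp2 by 2.13 ± 0.40 (adjusted p = 0.00138) and Keg1 by 1.83 ± 0.44 (adjusted p = 0.0061). Those 3 genes were called without any 1 GAL mouse. Hsd3b3 differed by 1.93 ± 0.66 (adjusted p = 0.0339) and Car3 by 1.39 ± 0.45 (adjusted p = 0.0261). For Hsd3b5 the difference with the filter off was 3.51 ± 1.06 (adjusted p = 0.0316, edgeR, and 0.0195 with it on). With the filter on, the calls of these 3 genes were lost without GAL mouse 4, 7 or 8. Their adjusted p was then between 0.0516 and 0.0978. The hepatocyte sums of the 2 groups overlapped. The sum of 7 sinusoidal endothelial markers was 81.9 to 117 CPM with CCl4 and 142 to 220 CPM with GAL, and the Kupffer sum was 160 to 488 CPM and 478 to 658 CPM. Their part in these differences was not tested. With the expression filter off, Slc13a2 went the other way, lower with CCl4 by 1.75 on the log2 scale (SE 0.52, adjusted p = 0.0292).

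Among the gavage compounds, Car3 and Hsd3b5 were the genes called. In its pairs with ANIT or MDA, Hsd3b5 passed the expression filter only through the other compound, which fixes the direction of that test, so its p is given from the fit with the filter off. In MDA against TAA, of the tested genes other than Hsd3b5, Car3 alone was called. It was lower with MDA, where 15.8% of all genes were lower and 30% were called in either direction. The log2 difference was -1.59 ± 0.42 for Car3 (adjusted p = 0.011, edgeR). With the filter off it was -5.02 ± 0.71 for Hsd3b5 (adjusted p = 0.000359), which rests on 0.83 to 9.36 estimated counts a mouse with MDA and 20.6 to 226 with TAA. Hsd3b3 went the other way, at 0.71 ± 0.29, and missed the threshold (adjusted p = 0.0882); it was called without TAA mouse 1 (1.09, adjusted p = 0.00426). In ANIT against TAA, Car3 was again the only gene called other than Hsd3b5, where 15.1% of all genes were lower and 26.2% were called in either direction. Car3 was lower with ANIT by 2.07 on the log2 scale (SE 0.48, adjusted p = 0.0116). With the filter off Hsd3b5 was lower by 5.73 (SE 1.28, adjusted p = 0.017), with 3 of 4 ANIT mice at 0. Inmt, Upp2, Keg1 and Hsd3b3 were not called in this pair, and the 95% intervals of their log2 differences were -0.38 to 1.40, -0.70 to 2.16, -0.98 to 1.17 and -0.86 to 1.66. Markers of other cells differed in the same pairs. The neutrophil sum was 8.46 to 131 CPM with MDA, 15.1 to 46.9 CPM with ANIT and 161 to 835 CPM with TAA. The B cell sum was 0.846 to 2.67 CPM, 1.23 to 3.58 CPM and 11.8 to 20.4 CPM. Their part in these differences was not tested.

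With the expression filter on, no gene of the 9 was called in the other 4 pairs. In ANIT against MDA 0 of 5 genes tested differed, and 0% of all genes were called by edgeR, with 1253 genes at an unadjusted p under 0.05 and 78 called by DESeq2. None of the 5 had an unadjusted p under 0.05. The 95% intervals were -1.22 to 0.63 for Hsd3b3, -1.51 to 0.57 for Car3, -0.58 to 1.29 for Inmt, -1.15 to 1.52 for Upp2 and -1.52 to 1.51 for Keg1. In APAP against TAA 0 of 6 differed, beside 2.62% of all genes, with none of the 6 at an unadjusted p under 0.05, and intervals as wide as -2.32 to 2.77 for Hsd3b5.

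In ANIT against APAP 0 of 6 genes differed, beside 5.98% of all genes. With the filter off Hsd3b5 was at -5.96 ± 1.96 (adjusted p = 0.149). In APAP against MDA 0 of 5 differed, beside 9.43% of all genes, and 0 of the 5 had an unadjusted p under 0.05 by edgeR or DESeq2. With the expression filter off Hsd3b5 was higher with APAP by 5.21 ± 1.19 (adjusted p = 0.0263). The number of genes called in both pairs also depended on APAP mice 8 and 11. Without them Car3 was lower with ANIT than with APAP (-2.67 ± 0.57, adjusted p = 0.049) and higher with APAP than with MDA (2.17 ± 0.48, adjusted p = 0.0224). The log2 differences of Hsd3b5 were then -6.59 ± 1.25 and 5.84 ± 0.67, given with no test, since only the 4 remaining APAP mice carried it through the filter. Leaving out this pair of mice was chosen after their values were seen.

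**Figure D4:**
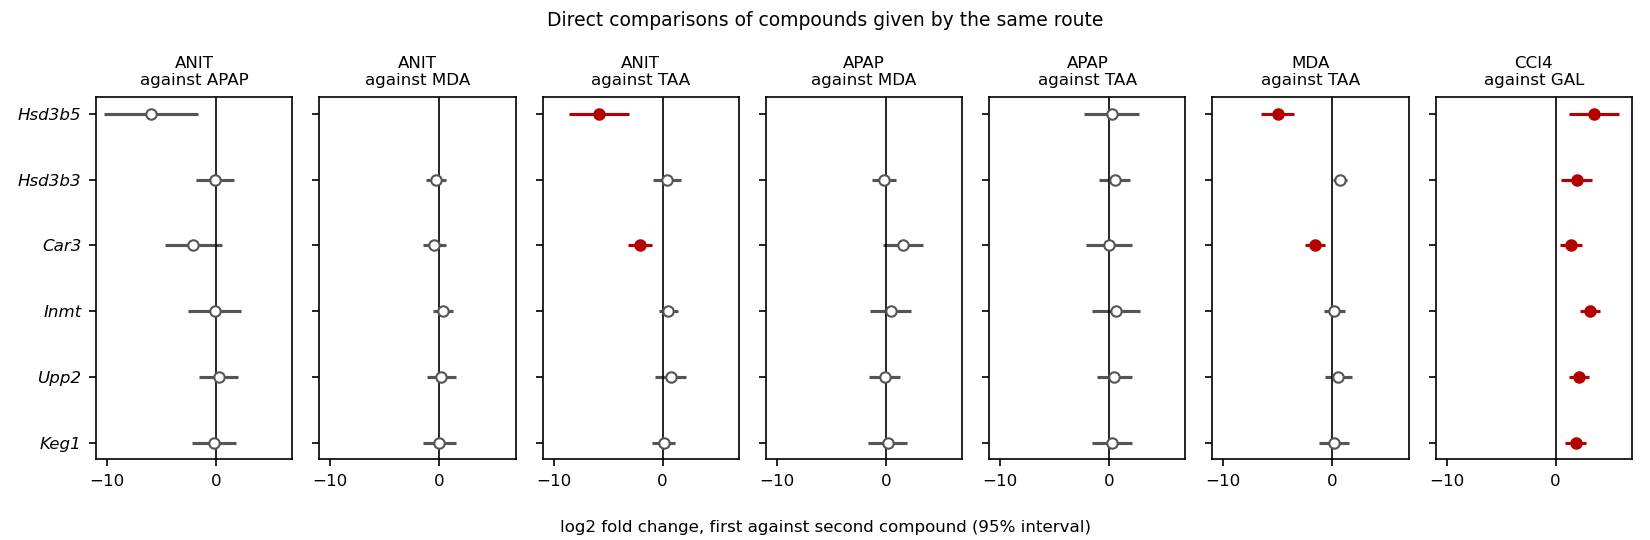
Log2 fold change between compounds of the same route (horizontal axes, first against second compound) for the 6 genes with enough reads; bars are 95% intervals and filled red points have an adjusted p under 0.05. All 6 genes lie to the right of 0 in CCl4 against GAL, and among the gavage pairs only Hsd3b5 and Car3 are filled. For Hsd3b5 in the pairs of ANIT or MDA the filter fixed the direction, and in CCl4 against GAL it passed the filter only with the CCl4 mice.

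No gene of the 9 was called between vehicle groups of different routes by edgeR. Intraperitoneal against gavage controls gave 0 of 9 genes (0.0131% of all genes called) and none of the 9 at an unadjusted p under 0.05 by edgeR or DESeq2. Intravenous against gavage controls gave 0 of 9 (0.0263% of all genes), with C330021F23Rik at 0.69 ± 0.22 and an unadjusted p of 0.00725. Intravenous against intraperitoneal controls gave 0 of 9 (0% of all genes), with 233 genes at an unadjusted p under 0.05 and 54 called by DESeq2. On simulated counts this last comparison recovered 1.02% of 4-fold and 69.5% of 16-fold changes (13790 genes tested), so its 0 says little about smaller differences. The corresponding shares were 69.1% and 84.4% for intraperitoneal against gavage controls (14676 genes tested), and 55.6% and 80.2% for intravenous against gavage controls (14741 genes tested). With 2 mice in each saline group the intervals are wide: for Upp2 in intravenous against gavage controls it was -0.49 to 1.91, and for Slc13a2 -1.98 to 0.30.

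The 13 gavage controls carry numbers 1 to 4, 7 to 12 and 15 to 18, and several of the 9 genes differed in level between these ranges. Inmt was 2042 to 3400 CPM in mice 1 to 4, 1288 to 1630 CPM in mice 7 to 12 and 999 to 1290 CPM in mice 15 to 18. Keg1 was 113 to 138 CPM in mice 1 to 4, 64.9 to 97.9 CPM in mice 7 to 12 and 37.0 to 74.6 CPM in mice 15 to 18. Hsd3b5 fell in the same order of ranges, from a median of 134 CPM to 92.8 and 56.4 CPM. Car3 was 2367 to 2815 CPM in mice 1 to 4 and 1452 to 2255 CPM in the other 9. Upp2 was 17.5 to 58.4 CPM in mice 15 to 18 and 75.2 to 174 CPM in the rest, and Slc13a2 was 1.10 to 1.73 CPM against 2.11 to 4.99 CPM. Ptk6 was 1.16 to 1.54 CPM in mice 15 to 18, 0.721 to 0.885 CPM in mice 7 to 12 and 0.657 to 1.30 CPM in mice 1 to 4. C330021F23Rik overlapped across the ranges, with medians of 4.21, 3.87 and 3.81 CPM. Hsd3b3 was lower in mice 15 to 18 (221 to 250 CPM) than in 8 of the other 9 mice and had a median of 337 CPM in mice 7 to 12. Marker sums moved with the ranges too. The hepatocyte sum was 125742 to 181732 CPM in mice 1 to 4 and 99097 to 133470 CPM in the other 9. The Kupffer sum was 210 to 266 CPM in mice 1 to 4 and 376 to 605 CPM in the rest, and the neutrophil sum was 2.16 to 3.55 CPM in mice 1 to 4 and 9.64 to 61.1 CPM in mice 15 to 18. Their part in these differences was not tested. The labels do not say what the numbers stand for. With the range (1 to 4 or above) as a covariate, the median log2 fold changes were -3.40 with ANIT, whose mice are all numbered 1 to 4, -2.77 with APAP, -3.55 with MDA and -3.14 with TAA. For mice numbered above 4 alone they were -2.92 with APAP and -3.31 with TAA.

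**Figure D5:**
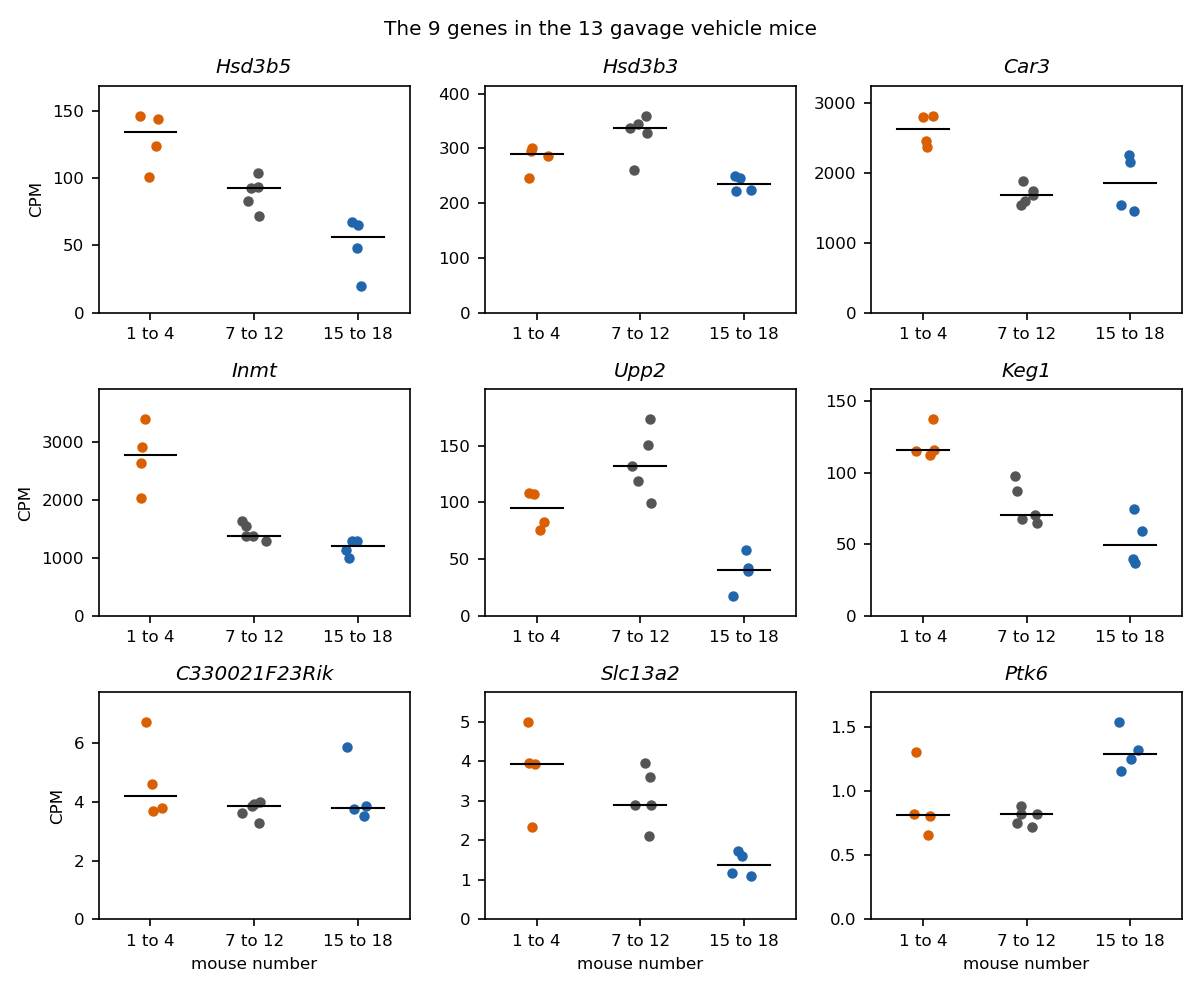
CPM of each gene (vertical linear axes from 0) in the 13 gavage vehicle mice by mouse number; points are mice and bars medians. Inmt, Keg1 and Hsd3b5 are highest in mice 1 to 4 and lowest in mice 15 to 18, and the median of Ptk6 is highest in mice 15 to 18.

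The other genes of the pathways were counted against the route vehicle, beside the shares of lower genes given above. The shares of all genes that were higher were 14% with ANIT, 17.3% with APAP, 17.4% with MDA, 26.4% with TAA, 18% with CCl4, 12.8% with GAL and 16.8% with ConA. Of the 12834 genes tested with every compound, 336 (2.62%) were lower and 148 higher with all 7. Of the Hsd3b family, Hsd3b2 and Hsd3b7 were tested with every compound and both were lower with all 7, with median log2 fold changes of -3.01 and -1.35. Hsd3b2 is a close relative of Hsd3b3, and Hsd3b7 acts in bile acid synthesis. Among 11 other steroid enzymes, 4 were lower and 1 higher with ANIT, 6 and 1 with APAP, 4 and 1 with MDA, 5 and 2 with TAA, 8 and 0 with CCl4, 9 and 0 with GAL, and 5 and 2 with ConA. Akr1d1, the steroid 5-beta-reductase, had the lowest median (-2.02, lower with 5 compounds). Hsd17b13, a lipid droplet enzyme, had the highest (0.77, higher with 4 and lower with 1).

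Growth hormone signalling did not move one way. Of 16 genes tested with all compounds, Ghr, the receptor itself, and Igfals, which binds insulin-like growth factor in blood, were lower with all 7 (medians -1.22 and -2.40). Socs3, an inhibitor of cytokine signalling, was higher with 6 compounds (median 3.29). The list median ran from -0.71 with GAL to 0.97 with ConA. Of 24 male-biased genes outside the 9, 6 were lower with all 7 compounds and none was higher with all. Elovl3, a fatty acid elongase, had the lowest median at -3.53, and Mup7, a major urinary protein, the highest at 0.74. The medians of the male-biased list lay between -0.50 with TAA and -1.73 with GAL. Of 15 female-biased genes, none was lower and none was higher with all 7, which at these background shares says little. Hao2, a peroxisomal hydroxy acid oxidase, passed the filter in 6 comparisons through the vehicle mice (mean 0.674 CPM in gavage controls, 0.00562 to 0.112 CPM in treated groups), and Ntrk2, a neurotrophin receptor, passed the expression filter with CCl4 alone, through the treated mice (mean 2.21 CPM against 0.122 CPM in controls), so no direction is read from either.

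Among 8 carbonic anhydrases tested throughout, Car5a and Car14 were lower with all 7. Car1 had the lowest median (-2.75, lower with 6), and Car4 passed the expression filter with ConA alone, through the treated mice (mean 4.18 CPM, controls at 0), so no direction is read from it. Of 6 glycine conjugation genes, Acsm5 (-1.68) and Acsm1 were lower with all 7, and Acsm3 (-0.80) was called with no compound. Among 14 methyltransferases and methyl-cycle genes, which include Mat1a and Ahcy, makers of methyl donor and homocysteine, Gamt, which makes creatine, was lower with all 7 (median -2.28), as was Mettl7a1. Nnmt, the nicotinamide methyltransferase, was higher with 2 and lower with 2 compounds (median 0.50). In this list 13 of 14 were lower with GAL (15.7% of all genes), 12 with CCl4 (15.6%), 11 with APAP (14.6%), 9 with TAA (24%), 7 with ConA (17.3%), 4 with MDA (16.4%) and 2 with ANIT (14.2%, so no more than among all genes). With ANIT 4 of 14 were higher (14% of all genes), and with ConA 1. Of the 12 hepatocyte markers, 11 were lower with GAL, 9 with CCl4, 2 with APAP, 3 with TAA, 1 with ConA, 3 with MDA and 2 with ANIT. Their part in the counts of this list was not tested.

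Among 14 genes of pyrimidine nucleoside metabolism, Dpys, which degrades pyrimidines, was lower with all 7 (median -1.60), as was the nucleoside carrier Slc29a1. Uck2, a uridine-cytidine kinase, was higher with all 7 (median 1.84). Of 5 other dicarboxylate and citrate carriers, the mitochondrial carrier Slc25a11 was lower with all 7 (median -0.68). Slc13a3 had the lowest median at -1.64 (lower with 5, higher with 1), and the citrate carrier Slc13a5 the highest at 1.40 (higher with 4). No Src-related kinase among 9 was lower or higher with all 7, a count too small to set against the background shares. Srms, the close relative of Ptk6, was low in all groups (mean 0.947 CPM in gavage controls, 0.177 to 0.788 CPM in treated groups), and Blk passed the expression filter with TAA alone, through the treated mice (mean 1.10 CPM against 0.134 CPM in controls), so no direction is read from it.

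The genes most like the 9 in pattern were sought by Pearson's r over the 10 group means of log2(CPM + 1) among 7718 genes. They were Mcm10 (r = 0.988), Gm16548 (0.985), Atg101 (0.984), Nudt7 (0.983) and 9030616G12Rik (0.981). The 10 points contrast vehicle with treated groups, so high values are common to any gene lower with all compounds, and r is a description. Nudt7, which encodes a peroxisomal hydrolase of coenzyme A compounds, was at 441 ± 5.08 CPM (SD, n = 2) in intravenous controls and 38.7 ± 22.0 CPM (SD, n = 7) with ConA. Mcm10, a replication factor, was at 26.3 ± 1.13 CPM and 3.58 ± 1.39 CPM in the same groups. Atg101, an autophagy factor, was at 56.4 ± 28.8 CPM and 19.6 ± 2.92 CPM.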

How the data were processed

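The authors deposited 1 table of estimated counts, with genes as lines and mice as columns. Salmon 1.6.0, R 4.1.3 and the genome build GRCm39 are named in the submitters' processing notes, without role or order. Among 13043 genes with a single transcript, which are not independent, longer genes had lower values (Spearman's rho -0.760), so the values look length-corrected; no source states it. Symbols from a GENCODE M21 table matched 51482 IDs and left 2825. Groups and numbers come from the sample labels. No 2 columns were identical.

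Estimated counts were rounded and fitted with edgeR 4.0.16 (R 4.3.3; TMM, filterByExpr, quasi-likelihood test, two-sided, only the 2 groups compared, no covariates, Benjamini-Hochberg threshold 0.05 over all genes tested). SEs come from the F statistic. CPM means counts scaled to a common library total with TMM factors from all 57 libraries. DESeq2 1.42.0, limma 3.58.1 on log2(CPM + 1), library totals, other filters, other controls, a replicate block and leaving out mice were alternatives. On simulated counts with known changes the test recovered 29.2% to 95.7% of 4-fold and 82.0% to 100% of 16-fold changes against the route vehicles, lowest in both for GAL (14947 genes tested there).

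The 9 genes, the 11 pathway lists and the 9 marker sets were chosen with earlier results of these data known. Genes named beside the 9 are each list's lowest and highest by median over the compounds, the tested Hsd3b genes and the 5 most similar genes. Outside this rule, genes next to the chosen 9 in rank and list genes lower or higher with all or most compounds were named after their values were seen. Promoter windows are RefSeq's (GRCm38.p6) and cover 6 of the 9 genes; sequences were compared with Biopython 1.88.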

Additional observations from a re-analysis of the deposited data

Results flagged for a closer look

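Among 63 groups of 4 to 10 mice, 7 held a mouse far from the rest on the log2(CPM + 1) scale by Dixon's criterion, where chance flags about 1 in 20. Hsd3b5 and C330021F23Rik were above 0 only in ANIT mouse 1, at 0.399 and 0.425 CPM; with the other three at 0, any value above 0 meets the criterion, so these flags are not to be set against the chance rate. Car3 was high in TAA mouse 1, at 481 CPM. Ptk6 was high in 3 single mice, at 0.156 CPM in ConA mouse 4, 0.314 CPM in MDA mouse 1 and 0.353 CPM in GAL mouse 2. Inmt was low in CCl4 mouse 10, at 108 CPM.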

How the results depend on the processing

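The 9 genes stayed lower against vehicle in all 751 refits of single genes in which they were tested. The log2 fold changes ran from -13.80 to -0.71, and 744 of them were under -1. The genes were chosen for a fall in these comparisons and the refits reuse the same mice, so nothing is read from this count. The median over the 9 genes kept within 1 SD in 83 of 85 settings. That SD is the spread among a compound's mice of the log2 median percentage left of the route vehicle mean. Where mice spread widely, as with APAP (0.644% to 29.9%), few shifts could exceed it, so the count also reflects mouse spread. The median ran from -3.62 to -2.42 (ANIT), -3.45 to -2.21 (APAP), -4.11 to -2.59 (MDA), -3.58 to -2.92 (TAA), -3.14 to -2.45 (CCl4), -5.46 to -3.56 (GAL) and -4.79 to -3.95 (ConA). The 2 that moved were MDA with mice numbered above 4 only (-4.11) and GAL without GAL mouse 2 (-5.46). With any other single mouse of GAL or its controls left out, the GAL median was -4.67 to -3.98, within 1 SD. Library totals in place of TMM shifted the median of all genes to 0.84 with GAL, 0.53 with CCl4, 0.22 with APAP, -0.23 with ANIT and -0.56 with ConA; the medians of the 9 genes were then -3.56, -2.45, -2.54, -3.04 and -4.79.

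Between compounds, the number of genes called changed as follows, and where no value shows it the cause was not tested. These counts include Hsd3b5 where it passed the filter through 1 compound alone. With it the main count was 2 in MDA against TAA, 2 in ANIT against TAA and 6 in CCl4 against GAL. ANIT against APAP gave 1 with DESeq2 and 2 without APAP mice 8 and 11. ANIT against TAA gave 1 with a mean CPM of at least 5, which drops Hsd3b5, and 0 with a replicate block, on 2 shared numbers. APAP against MDA gave 1 with no filter and 2 without APAP mice 8 and 11. MDA against TAA gave 1 with a mean CPM of at least 5, and without TAA mouse 1 Hsd3b3 was called too. CCl4 against GAL gave 3 to 6 when 1 GAL mouse was left out; with library totals Hsd3b3 and Car3 missed the threshold (adjusted p = 0.0712 and 0.0711), and Hsd3b3 with no filter (0.0564). Hsd3b5 in APAP against TAA, 0.22 and never called, turned to -0.29 with limma, -0.41 with the number range, -0.52 with the replicate block and ran from -0.068 (without TAA mouse 3) to 0.97 when 1 TAA mouse was left out. The numbers were not taken to pair mice, since in no comparison with 3 or more shared numbers did every same-numbered pair exceed a correlation of 0.1 (TAA against gavage controls came closest, with 3 of 4). The replicate block changed no other call of the 9 genes between compounds. Of all genes, it left 0 called in ANIT against APAP (826 without it), APAP against MDA (1272) and APAP against TAA (367), 117 in ANIT against TAA (3559) and 1424 in MDA against TAA (4118). DESeq2 called 2115, 2040 and 1159 in the first 3 pairs. Pathway list counts moved by over 1.5 times in 260 of 1870 refits.

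Saline groups of 2, the few reads of Slc13a2, Ptk6 and C330021F23Rik after treatment and the unstated doses limit what these comparisons can show. Compounds given by different routes were not compared directly.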
